A study of Homo sapiens with 4 samples.

Results

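The messenger RNAs of the translation factors were examined for N7-methylguanosine (m7G) in HepG2, a human hepatocellular carcinoma cell line grown without special treatment. Members are all peaks whose gene name begins with EIF and a digit, or with EEF1 or EEF2, or is ETF1, GSPT1 or GSPT2. This gave 26 of the 3355 peaks of m7G immunoprecipitation (IP) replicate 1 and 39 of the 4747 peaks of replicate 2, in 32 genes out of 3769 that either list names. The study sequenced poly(A) RNA before (input, 2 samples) and after pull-down with an anti-m7G antibody (IP, 2 samples). All 4 samples are of the same untreated line, and whether the replicates were separate cultures is not stated in them. The values are those of the authors' peak list of each IP sample: a peak is a stretch of mRNA called as enriched, with its own fold enrichment and p-value. Each value therefore belongs to 1 library and has no error of its own, and no test between groups could be run.

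Translation begins when eIF4E, within the eIF4F complex, holds the m7G cap at the 5' end of an mRNA, and eIF3 and the eIF2 ternary complex bring the small ribosomal subunit with the initiator tRNA. The eEF1 factors then deliver aminoacyl-tRNAs, eEF2 moves the ribosome along, and eRF1 (ETF1) with eRF3 (GSPT1, GSPT2) releases the finished chain. m7G is the nucleotide of the cap, and it also occurs inside RNAs. Many mRNAs of the translation machinery, those of EEF1A1 and EEF2 among them, are known for a 5' terminal oligopyrimidine (TOP) tract, a C followed by a run of C and T, through which growth signals control their use.

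The first bases of 7 of these mRNAs show where peaks met, or did not meet, the annotated start. They are RefSeq sequences (GRCh38.p14) from 10 bases before to 20 bases from the start on, so the 11th base is the first transcribed one. Capitals mark the longest run of C and T that holds the start or begins or ends within 5 bases of it. The peaks of EEF1A1, EIF1, EIF3J and EIF2B4 reached the annotated start, that of EIF3F began 43 nt after it, and the peaks of EEF2 and EIF2S3 lay farther inside.
EEF1A1 (chr6:73521013-73521042, minus strand): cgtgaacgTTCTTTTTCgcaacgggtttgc
EIF1 (chr17:41688875-41688904, plus strand): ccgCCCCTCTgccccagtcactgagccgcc
EIF3J (chr15:44537137-44537166, plus strand): ccgccgtgctaaCTCCTCgctagctctccc
EIF2B4 (chr2:27370319-27370348, minus strand): tgaccaCggcgggcggagcctaggactgag
EIF3F (chr11:7987327-7987356, plus strand): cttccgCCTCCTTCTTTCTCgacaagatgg
EEF2 (chr19:3985444-3985473, minus strand): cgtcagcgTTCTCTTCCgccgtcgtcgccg
EIF2S3 (chrX:24054946-24054975, plus strand): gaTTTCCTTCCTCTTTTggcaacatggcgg
The runs measured 9 bases in EEF1A1 and in EEF2, 14 in EIF3F and 15 in EIF2S3, but 7 in EIF1, 6 in EIF3J and 1 in EIF2B4. A peak touching the start was thus seen without a long pyrimidine run in EIF1, EIF3J and EIF2B4. With a run of 9 bases it was seen in EEF1A1 alone of these 7 genes. That EEF1A1 peak was called in replicate 2 only, with a -log10 p of 3.36.

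Peaks were listed for 32 of the 73 protein-coding RefSeq genes whose symbols match the name rule (43.8%), where 17.9% of all 20052 coding genes had a peak in either list. Expression is not given in these lists, so a gene without m7G and a gene with little mRNA cannot be told apart. Among genes that had a peak, translation factor genes were found in both lists about as often as the rest. Of the 32 genes, 16 had a peak in both lists (50%, 95% Wilson interval 33.6 to 66.4%, which covers counting error only), where 51.7% of all genes with a peak did. At the level of sites, 18 of 26 peaks in replicate 1 (69.2%) and 20 of 39 in replicate 2 (51.3%) were shared, meaning that 50% or more of the shorter peak's bases lay in a peak of that gene in the other list. The same share over all peaks was 65.1% in replicate 1 and 45.4% in replicate 2. When 80% of each peak had to overlap, 6 of 26 (23.1%) and 6 of 39 (15.4%) were shared, where 23.8% and 16.8% of all peaks were. Matched 1 to 1, the peaks shared by the 50% rule gave 18 shared peaks in 14 genes. EIF2S3, the gamma subunit of eIF2, and EIF1AD, a protein named for its eIF1A domain, had peaks in both lists at different sites.

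By role, the eIF3 complex held 5 of the 14 genes with a shared peak. Of the 73 translation factor genes 19.2% had one, where 8.15% of all coding genes did. Of the 14 eIF3 genes, 5 had a shared peak (EIF3A, EIF3B, EIF3C, EIF3G and EIF3J), 3 had a peak in 1 list, and 6 had none. The eIF4 factors and their binding proteins had a shared peak in 3 of 16 genes and a peak in 1 list in 5. The genes of start codon selection and of the ternary complex (eIF1, eIF2, eIF2B, eIF5 and eIF5B) had a shared peak in 2 of 18. The elongation factors and the enzymes that modify them had a shared peak in 2 of 14, EEF2 and EEF1D, and no peak in 10. Genes were matched by their current symbol, so a peak listed under an older symbol would be missed in these counts. Of the 4 eIF2 kinases, 2 had a peak, in replicate 2 only. EIF4E, the cap-binding protein itself, had no peak, nor had the alpha and beta subunits of eIF2 (EIF2S1, EIF2S2), nor GSPT1 and GSPT2.

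**Figure D1:**
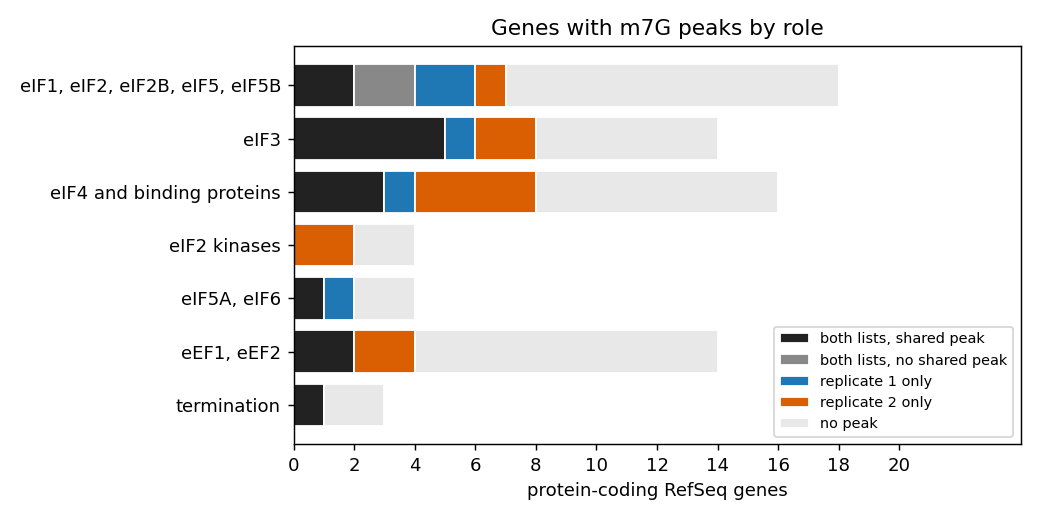
Number of protein-coding RefSeq genes in each role (x axis, genes), split by whether they had a shared peak, peaks in both lists at different sites, a peak in 1 list, or no peak. The black segments hold 14 genes in all, 5 of them in eIF3, and the pale segments without a peak hold 41.

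The folds of translation factor peaks were low. The median fold of the 26 replicate 1 peaks was 1.68 (interquartile range 1.61 to 2.21), where the median of all peaks of that list was 3.71. In replicate 2 the median of 39 peaks was 2.06 (1.595 to 3.49), where that of all peaks was 3.87. The mean of both medians was 1.87 ± 0.269 (SD, n = 2). In replicate 1, 23 of 26 peaks (88.5%) lay under the median of their list, where 47.9% of all peaks did so strictly. In replicate 2 the count was 31 of 39 (79.5%), against 49.8%. A fold under 2, a limit chosen after the values were seen, was found for 17 of 26 peaks (65.4%) and 18 of 39 peaks (46.2%), where 17.1% and 13.0% of all peaks had one. These are descriptions of 2 lists, without a test, and several peaks belong to the same gene.

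The low folds did not come with weak p-values. The median -log10 p of the translation factor peaks was 7.43 in replicate 1 and 7.29 in replicate 2, where all peaks had 5.50 and 5.07. Their median length was 181 nt and 180 nt, where it was 151 nt over all peaks of either list. Cytosolic ribosomal protein genes, which make the other part of the translation machinery, had median folds of 1.36 (18 peaks) and 1.45 (15 peaks), with a median -log10 p of 21.2 and 20.4. Read depth and transcript abundance are unknown from these lists, and their part in the low folds was not tested.

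**Figure D2:**
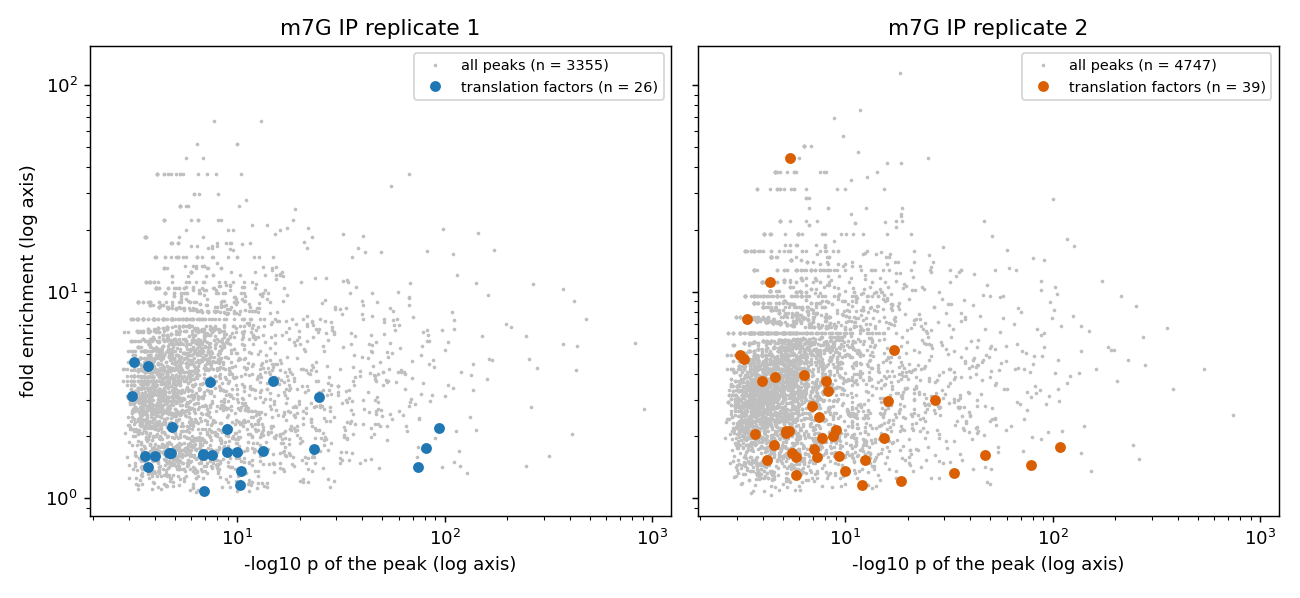
Fold enrichment against -log10 p of every peak in each IP replicate (both axes logarithmic); grey points are all peaks and coloured points are the translation factor peaks, 26 in replicate 1 and 39 in replicate 2. Coloured points lie mostly low, 17 and 18 of them under a fold of 2, and those farthest to the right belong to EEF2 and EIF1.

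Translation factor peaks were also often spliced, that is, they joined more than 1 genomic block. In replicate 1, 15 of 26 peaks (57.7%, 95% Wilson interval 38.9 to 74.5%) were spliced, where 26.4% of all peaks were. In replicate 2 the count was 24 of 39 (61.5%, 45.9 to 75.1%), against 28.2%. The intervals for peaks, here and below, treat peaks as independent, though several belong to the same gene. In replicate 2 the spliced peaks named EIF3C and EIF3CL also lay at nearly the same positions. Among ribosomal protein genes, 14 of 18 and 12 of 15 peaks were spliced. All 9 peaks of EEF2 were spliced, and with EEF2 left out the mean share fell from 59.6% to 52.9%. No exon models were used, so which exons the blocks cover was not analysed here.

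Among the elongation factors, EEF2, which drives translocation, held peaks along much of its span, all at low fold. Its gene lies on chromosome 19 from 3976056 to 3985463 (GRCh38, minus strand). It held 4 peaks of 1911 nt together in replicate 1, the 5th largest covered length of the 2511 genes in that list. In replicate 2 it held 5 peaks of 1525 nt, the 23rd largest of 3205. The covered stretches had 1375 nt in common, 72.0% of the replicate 1 bases and 90.2% of the replicate 2 bases. From the 3' end to the 5' end of the gene, the folds were 1.42, 1.09, 1.75 and 1.16 in replicate 1. In replicate 2 they were 1.45, 1.33, 1.22, 1.77 and 1.16 in the same order. In both lists the highest fold lay in a spliced peak in the 5' part of the gene, from 3980661 to 3982846 in replicate 1 (-log10 p of 81.2) and from 3981973 to 3982816 in replicate 2 (-log10 p of 108). The longest peak lay near the 3' end, with 806 nt and a -log10 p of 74.4 in replicate 1 and 716 nt and 78.8 in replicate 2. The 4 paired peaks of EEF2 had folds that differed by at most 1.22 times between the lists. The first base of any EEF2 peak lay 1146 nt from the annotated start in replicate 1 and 2228 nt in replicate 2, introns included.

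EEF1A1, which encodes the main carrier of aminoacyl-tRNA, had a different kind of peak. It was called in replicate 2 only, with a fold of 7.38 and a -log10 p of 3.36. Only 9.33% of the peaks in that list had a lower -log10 p. The same fold and -log10 p were listed there for ABCC4, ARVCF and EHMT1. The EEF1A1 peak comprised 2 blocks on chromosome 6, from 73521000 to 73521032 and from 73520000 to 73520056. The 33 nt block began exactly at the annotated start, with the pyrimidine bases CTTTTTC of the sequence above at its 5' end. Many processed pseudogenes copy EEF1A1, and whether the authors' alignment split reads among near-identical copies was not tested. EEF1D, an exchange factor for eEF1A, had its peaks on chromosome 8 close to the 3' end of the gene. The replicate 1 peak, from 143579786 to 143580623, had a fold of 1.70. In replicate 2 the same stretch held 2 peaks with folds of 1.58 and 1.6, and a further peak inside the gene, from 143590006 to 143590066, had 2.06. EEF2K, the kinase that inhibits eEF2, had a replicate 2 peak with a fold of 3.89 that began 232 nt from the start.

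Among the eIF3 genes with a shared peak, EIF3J and EIF3A had the higher folds and EIF3B, EIF3C and EIF3G the lower ones. EIF3J, a loosely bound subunit that acts at the mRNA channel, had a peak over its start on chromosome 15. It ran from 44537128 to 44537393 in replicate 1 with a fold of 3.64, and from 44537098 to 44550901, across a further intron, in replicate 2 with a fold of 5.24. EIF3A, the largest subunit, had folds of 2.22 and 3.30 at a site on chromosome 10 from 119042219 to 119042279, which the 211 nt peak of replicate 2 contained. EIF3B, a scaffold subunit, had folds of 1.63 and 1.95 over 449 nt in each list, of which 419 nt were common. EIF3G, an RNA-binding subunit, had a peak of identical blocks in both lists on chromosome 19 from 10115787 to 10116836, with folds of 1.68 and 1.59.

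EIF3C had folds of 1.61 and 2.15 at 28723253 on chromosome 16, and a further replicate 2 peak with a fold of 2.11. Replicate 2 also listed 2 peaks under the near-identical gene EIF3CL, with folds of 1.95 and 2.08. They lay at nearly the same positions, inside the RefSeq span of EIF3C, so the same reads may stand behind both names. EIF3F was called in replicate 2 only (fold 3.95), near its start, and EIF3I in replicate 1 only (fold 1.65). All 5 shared peaks of the complex had folds under the median of their list in both replicates, except the replicate 2 peak of EIF3J.

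**Figure D3:**
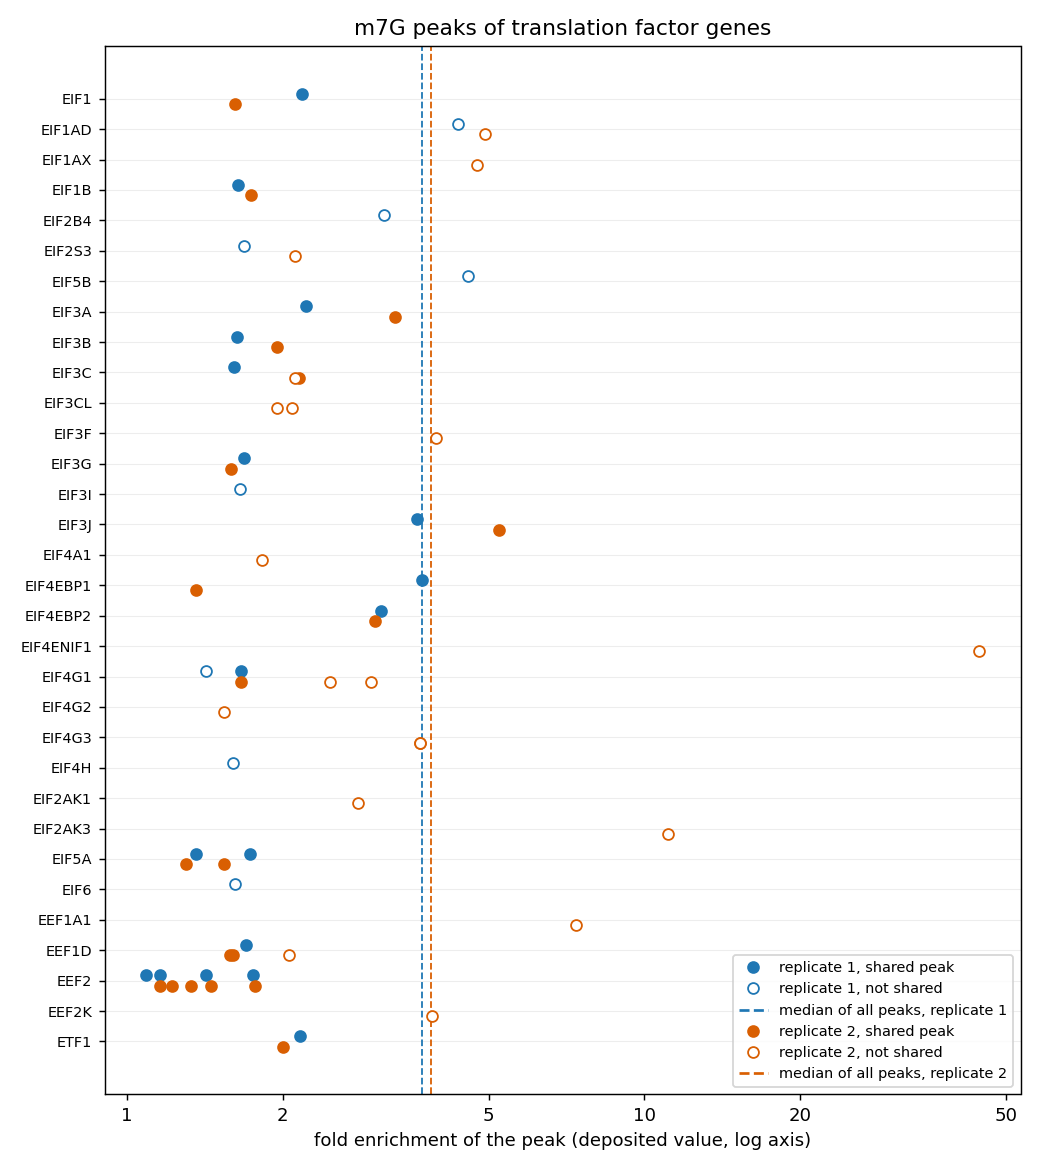
Fold enrichment (x axis, logarithmic) of every translation factor peak, by gene, in order of role; filled points are shared peaks, open points are peaks without a partner in the other list, and dashed lines mark the median of all peaks, 3.71 in replicate 1 and 3.87 in replicate 2. Most points lie left of the lines, and the points farthest right (EIF4ENIF1, EIF2AK3 and EEF1A1) are open. The 2 peaks of EIF4G3, 3.68 and 3.69, overlap.

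Among the factors that choose the start codon, EIF1 and its paralogue EIF1B had alike peaks at the 5' end. The EIF1 peak had identical blocks in both lists, on chromosome 17 from 41688875 to 41689069 and from 41689778 to 41689789, and began 10 nt before the annotated start. Its fold was 2.18 in replicate 1 and 1.62 in replicate 2, and its -log10 p was 93.8 and 47.2. The EIF1B peak on chromosome 3 began at 40309771 in replicate 1 and at 40309742 in replicate 2, and it too crossed an intron near the start. Its folds were 1.64 and 1.74, with a -log10 p of 6.80 and 7.03. EIF1 thus had the far stronger p-values of the pair in both lists, at folds close to each other in replicate 2.

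Other genes of this group had peaks in 1 list or at different sites. EIF5B, which joins the ribosomal subunits, had a replicate 1 peak of 61 nt with a fold of 4.57 that began 42 nt after the start. EIF2B4, a subunit of the exchange factor for eIF2, had a replicate 1 peak with a fold of 3.14 that began at the start itself. EIF1AX, which encodes eIF1A, had a replicate 2 peak with a fold of 4.74. These 3 peaks had a -log10 p between 3.10 and 3.24, close to the weakest in their lists (2.79 and 2.62). EIF2S3 had folds of 1.68 and 2.11 at peaks with midpoints 1492 nt and 521 nt from the 3' end. EIF1AD had folds of 4.36 and 4.92 at 2 separate sites of 61 nt, both toward the 3' end.

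Among the eIF4 genes and the proteins that bind them, 3 had a shared peak, EIF4EBP1, EIF4EBP2 and EIF4G1. EIF4EBP2, a repressor that holds eIF4E away from eIF4G, had folds of 3.09 and 3.01 at a peak near its start on chromosome 10, from 70404254 to 70404523 in replicate 1, which the spliced replicate 2 peak contained. Its paralogue EIF4EBP1 had folds of 3.71 and 1.36, 2.73 times apart. In replicate 1 its peak comprised 711 nt in 3 blocks of 217, 180 and 314 nt on chromosome 8 from 38030502 to 38060217. In replicate 2 only 149 nt within the latter 2 of these blocks were called. EIF4G1, the scaffold of eIF4F, had a shared spliced peak with a fold of 1.66 in both lists, on chromosome 3 from 184316190. Replicate 1 added a peak with a fold of 1.42, and replicate 2 added peaks with folds of 2.47 and, over 450 nt near the 3' end, 2.96.

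The remaining eIF4 peaks were called in 1 list. EIF4G2, a relative of EIF4G1 that does not bind eIF4E, had 1.54, EIF4G3 had 3.68 and 3.69, and the helicase gene EIF4A1 had 1.82, all in replicate 2. EIF4H, a helper of that helicase, had 1.6 in replicate 1. The peak of EIF4A1 also lies in the read-through gene SENP3-EIF4A1. EIF4ENIF1, which carries eIF4E into the nucleus and to P-bodies, had the highest fold of any translation factor peak, 44.3 in replicate 2, with a -log10 p of 5.43. That fold equals, within rounding, the commonest fold of the list, 6.33, times a whole number. No other translation factor peak had a whole multiple of 6.33. The replicate 2 folds of EEF1A1 (7.38) and EIF2AK3 (11.1) also recurred at other genes of that list, such as ABCC4 and ARHGAP32. Lower folds recurred as well, such as that of EIF1AX (4.74), listed there for ADM2 and BAZ2A too.

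The eIF2 kinases, which slow initiation under stress, had peaks in replicate 2 only. EIF2AK3 (PERK), the sensor of the endoplasmic reticulum, had a fold of 11.1 with a -log10 p of 4.33. EIF2AK1 (HRI), known for its response to heme, had a fold of 2.79 with a -log10 p of 6.93, 36 nt after its start. EIF5A, which helps the ribosome through difficult stretches, had 2 shared peaks close to its 3' end on chromosome 17. The first, from 7311606 to 7312075 in replicate 1, had folds of 1.73 and 1.54, and the other, from 7312134 to 7312403, had folds of 1.36 and 1.30. EIF6, which keeps the large subunit free, had a fold of 1.62 in replicate 1, also near the 3' end. ETF1, the release factor eRF1, had a spliced peak close to its start on chromosome 5 with folds of 2.16 and 2.

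**Figure D4:**
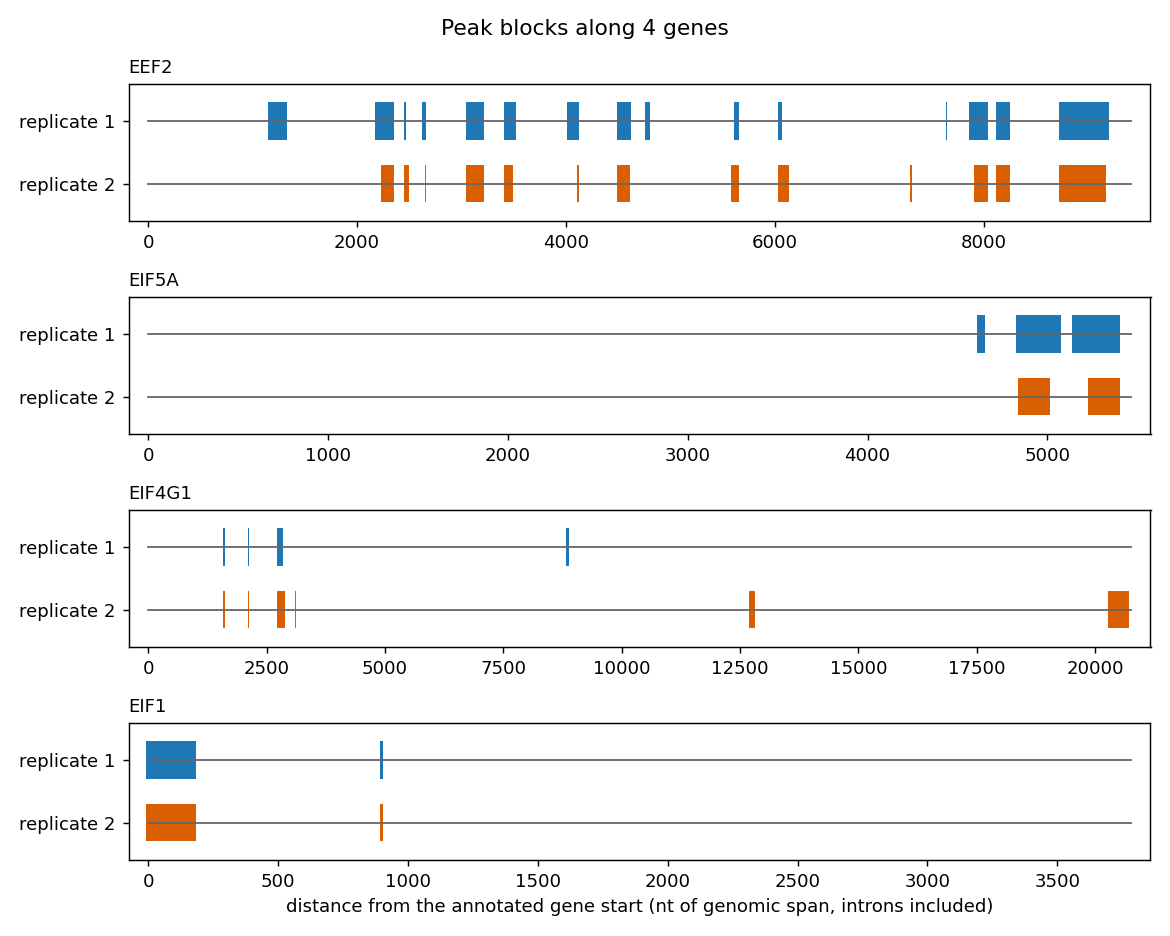
Peak blocks of EEF2, EIF5A, EIF4G1 and EIF1 in replicate 1 (blue) and replicate 2 (orange) by distance from the annotated start (x axis, nt of genomic span with introns; each gene has its own scale). Blocks of EEF2 run from 1146 nt (replicate 1) or 2228 nt (replicate 2) to near the 3' end, those of EIF5A lie at the 3' end, and the EIF1 peak has the same 2 blocks in both lists.

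Folds at shared translation factor peaks were close between the lists. Of the 18 pairs, 17 (94.4%) lay within 1.5 times of each other, where 72.6% of all 2128 shared pairs did. The exception was EIF4EBP1. The median ratio of the higher to the lower fold was 1.08, where it was 1.25 over all pairs. The lowest fold of any peak was 1.07 in replicate 1 and 1.04 in replicate 2, so low folds leave little room for a large ratio. Shared translation factor peaks had median folds of 1.69 and 1.61, where all shared peaks had 3.71 and 3.95. Whether the pairs were closer than their low folds imply was not tested. Replicate 1 had the higher fold in 8 pairs, replicate 2 in 8, and the folds were equal in 2. No test was run. Across the 18 pairs, which include several peaks of the same gene, the folds ranked together with a Spearman's rho of 0.55.

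**Figure D5:**
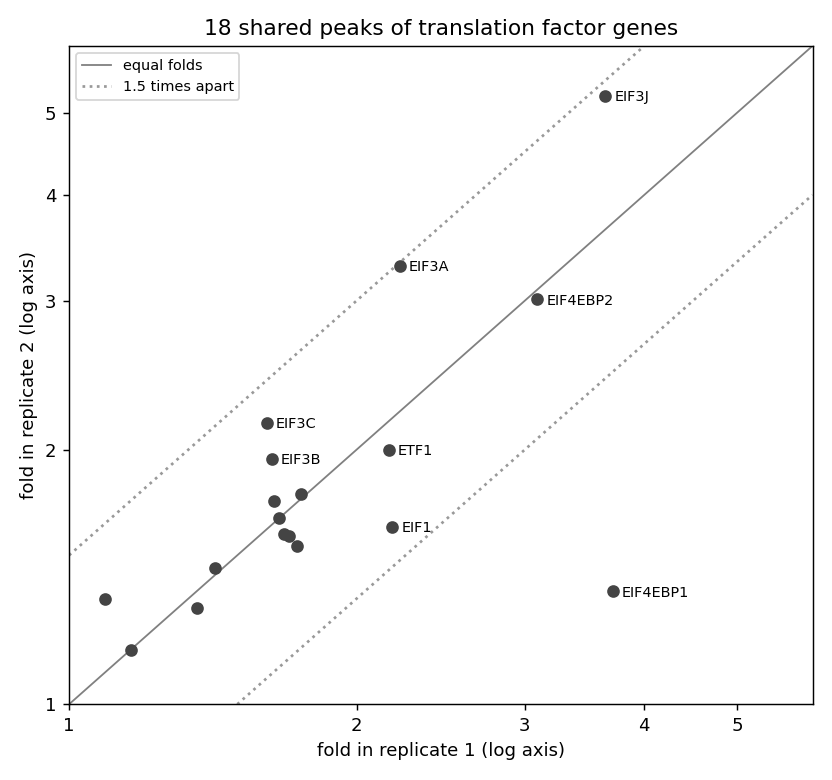
Fold in replicate 1 against fold in replicate 2 for the 18 shared peaks (both axes logarithmic), with the line of equal folds and dotted lines 1.5 times apart; genes with a fold over 1.9 in either list are named. EIF4EBP1 (3.71 and 1.36) is the 1 point outside the dotted lines.

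Peaks without a partner in the other list had weaker p-values. The median -log10 p was 10.1 for the 18 shared and 3.86 for the 8 unshared peaks in replicate 1. In replicate 2 it was 11.0 for 20 shared and 5.18 for 19 unshared peaks. Over all peaks the same split gave 6.94 and 4.20 in replicate 1, and 7.93 and 4.20 in replicate 2. In replicate 2 the unshared translation factor peaks had a median fold of 2.96 and the shared ones 1.61. In replicate 1 the medians were 1.67 and 1.69. Over all peaks the unshared and shared median folds were 3.8 and 3.95 in replicate 2, and both were 3.71 in replicate 1.

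Peaks at the 5' end, with a midpoint within 200 nt of the annotated start, made up 6 of 26 in replicate 1 (23.1%, 95% Wilson interval 11.0 to 42.1%), where 26.8% of all peaks lay there. In replicate 2 they made up 7 of 39 (17.9%, 8.98 to 32.7%), against 21.2%. EIF1, EIF1B and EIF3J had such a peak in both lists. With any base within 200 nt counted, the shares were 30.8% and 28.2%, against 35.8% and 30.3% of all peaks. Counting this way added EIF4EBP1 and EIF4EBP2 in replicate 1 and EIF4EBP2, EIF4G3, EEF1A1 and ETF1 in replicate 2. The shares of translation factor peaks at the 5' end thus lay near those of all peaks. Their median fold there was 2.66 in replicate 1 and 2.79 in replicate 2, and 1.66 and 2.03 elsewhere. Over all peaks the medians were 4.84 and 4.87 at the 5' end and 3.40 and 3.61 elsewhere.

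Starts differ between transcripts, and some peaks lie at another RefSeq start than that of the gene's span. Measured from the start in the promoter table, the peaks of EIF3B began 162 nt and 132 nt after it, that of EIF2AK3 68 nt and that of EIF4ENIF1 44 nt, where the span gave 903, 873, 749 and 3770 nt. Replicate 2 peaks of EIF4G2 and EIF4G3 went the other way. They began 40 nt and 69 nt from the start of the span, but at -890 nt and -65445 nt from the promoter-table start. By the promoter table, 8 of 22 peaks (36.4%) and 11 of 30 (36.7%) began within 200 nt of a start. Of all peaks with a promoter, 37.2% and 31.1% did. In replicate 2, EIF4ENIF1 and EIF2AK3, the translation factor peaks of highest fold, thus began close to the promoter-table start. They began farther from the start of the span.

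TOP-like starts were described in the RefSeq promoters, of which 59 of the 73 genes had an entry. A run of C and T of at least 8 bases at the start was present in 13 of them (22.0%), where 11.4% of all 15842 coding promoters had one. The motif CTTTT, between 10 bases before and 20 bases from the start on, was on the transcribed strand in 8 (13.6%), where 2.97% of all promoters held it. Its reverse complement AAAAG was in 0, where 1.5% of all held it. Of the 26 genes with a peak and a promoter, 2 held CTTTT (7.69%, where 2.70% of all 2922 genes with both did). In the same 26 genes, 6 had a run of at least 8 bases (23.1%, against 11.6%), EIF3F, EEF1A1, EEF2, EIF2S3, EIF4G3 and EIF4H. Of the 9 with a peak whose midpoint lay at the 5' end, 1 had such a run (11.1%) and 0 held CTTTT. Of all 1015 genes with such a peak and a promoter, 9.46% had a run and 1.67% held CTTTT, so the shares were alike. EIF4G2 counts among the 9 by the start of its gene span only. Among the 6 genes with a run, EIF3F and EEF1A1 had a peak within 200 nt of the printed start. Both the run and CTTTT overlap in EEF1A1 and EIF2S3, and a match describes letters, not a site.

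Other genes of the pathway had higher median folds than the factors. Of 44 other genes that act on translation or its control, 12 had a peak in both lists, 2 in replicate 1 only, 6 in replicate 2 only, and 24 in neither. A peak in both lists was found for 21.9% of the 73 translation factor genes and 9.3% of all coding genes. The median fold of these other genes was 2.84 over 23 peaks and 3.39 over 27 peaks, still under the 3.71 and 3.87 of all peaks. MKNK2, a kinase of eIF4E, had folds of 11.0 and 9.73, and RPS6KB2, a kinase of ribosomal protein S6, had 5.37 and 6.71. GIGYF1, a partner of the cap-binding repressor 4EHP, had 4.77 and 7.12 at its pair of largest overlap. LARP1, which binds TOP mRNAs, had 3.58 and 2.14. AKT1S1, an inhibitor within mTORC1, had 4 peaks in each list, with folds of 2.13 and 2.16 at the pair of largest overlap. The lowest shared folds were those of ATF4, the transcription factor of the integrated stress response (1.41 and 1.33), and TPT1, whose mRNA is a TOP mRNA (1.49 and 1.38).

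As a check of the line, 12 of 23 hepatocyte markers had peaks in both lists, APOA1, APOB, TF and SERPINA1 among them, and 11 had none, ALB and AFP included. Of all 20052 coding genes, 9.3% had peaks in both lists. Of markers of other cell types, 1 of 7 endothelial and stellate genes (ACTA2) had peaks in both lists, and the other 6, PECAM1 and VWF among them, had none. The immune cell markers CD68 (folds of 4.15 and 3.95) and LYZ (6.73 and 2.36) also had a shared peak, and PTPRC, CD14 and CD3E had no peak. Peaks do not measure expression, so these counts say only which mRNAs were called.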

How the data were processed

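Stranded mRNA libraries of HepG2 poly(A) RNA, input and m7G IP, were sequenced on an Illumina instrument, per the labels' protocols. STAR and GRCh38 are named in the submitters' processing notes without version or role. The caller, any filters and the sequencing depth were not given in the sources used here. Input values were not analysed here. The authors' deposited lists, 1 per IP sample, give each peak's blocks, p-value, log10 p and log10 FDR scores, and fold enrichment, a ratio whose reference and scaling the headers do not name. The fold, p-value and scores are the authors' own and were used to describe and rank peaks within a list. The weakest FDR of either list had a -log10 of 1.32.

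From these, members were taken by name, and a peak counted as shared if a peak with its gene name and strand in the other list covered 50% or more of the shorter one's block bases. Gene spans and promoters came from RefSeq tables of GRCh38.p14. Of the 65 member peaks 63 matched by symbol in place and 2, named EIF3CL, lay in the span of EIF3C. Positions are genomic distances, introns included, of the midpoint along the blocks, over the 3322 and 4706 peaks that overlapped the span of their gene. Named genes are all members, with values in full for those with a shared peak, and the pathway list. No test was run, since 1 group has files and the members were chosen by name. 1 marker of the immune list is not reported here. The members and lists were chosen with earlier results of these data known. Alternatives were other overlaps, windows and starts, the 50% of peaks with the smallest p, each replicate alone, and members left out. Overlap and position counts were tested on simulated data. Scripts ran under Python 3.11.15 with scipy 1.17.1, pandas 2.3.3, matplotlib 3.10.9 and numpy 2.4.6.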

Additional observations from a re-analysis of the deposited data

How the results depend on the processing

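Of 30 alternative values, 24 stayed within the spread of the lists (1 SD of the replicates, of the pair ratios, or the Wilson interval). The 24 include the settings without 1 replicate, where each of 2 values lies within 1 SD of their mean by construction. They also include a setting that removed 0 pairs. The outcome of such settings was fixed in advance, so the count of 24 does not measure robustness. The share of member peaks with a partner was 60.3% (mean of the lists) and 19.2% with 80% reciprocal overlap, which fewer pairs pass by construction. The 5'-end share was 20.5%, and it was 26.3% within 500 nt, 29.5% with any base within 200 nt, and 36.5% from the starts of the promoter table; each counts more bases or other starts. The spliced share was 59.6%, and it was 74.9% among peaks in the smaller 50% of p-values, where the cause was not tested, and was 52.9% without EEF2. The promoter-table starts and leaving out EEF2 or EIF3CL were chosen after seeing the data. Without one replicate, the median fold ranged from 1.68 to 2.06, the share with a partner from 51.3 to 69.2%, the 5'-end share from 17.9 to 23.1% and the spliced share from 57.7 to 61.5%. The median fold was 1.9 without EEF2 and 1.81 without kinases, methyltransferases and binding proteins. Folds equal to the commonest fold times a whole number occurred in 0 shared pairs, so leaving them out changed nothing. No paired analysis was possible because input samples have no values here and no test was run. The unknown depth of each library limits which sites were callable.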
